A study of Mus musculus with 8 samples.

Results

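SN-011-treated Trex1-KO bone marrow-derived macrophages (BMDMs) were compared with wild-type (WT) BMDMs by RNA-Seq, to describe which genes still differed from WT while STING was inhibited. The comparison used 4 of the 8 libraries of the series, namely the 2 titled as Trex1 knockout with SN-011 and the 2 titled as wild type, and the titles alone decided which libraries entered. BMDMs are macrophages grown from marrow progenitors, here from the tibia and femur of WT and Trex1-/- mice aged 6 to 8 weeks, cultured for 7 days in medium conditioned by L929 cells, a fibroblast line that secretes the macrophage growth factor M-CSF. Per the labels, treatment lasted 12 h with DMSO as the vehicle. The WT group carried no knockout and no antagonist in its title. The Trex1-KO+SN-011 group carried the constitutive Trex1 knockout and received SN-011, a STING antagonist at 500 nM by the study's methods (printed there as nm), a dose the labels do not give. Values from the Trex1-KO libraries that name no antagonist (n = 2) and from Trex1-KO libraries given H151, another STING antagonist, at 500 nM (n = 2) are given beside the comparison where they show how far a gene had moved. Per the study's methods the mice had a C57BL/6J background, WT mice were purchased and Trex1-/- mice were bred from heterozygous parents.

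TREX1 is an exonuclease that degrades DNA in the cytosol. When it is missing, self DNA can be bound by the sensor cGAS (Cgas), whose second messenger cGAMP activates the adaptor STING (Tmem173), and STING in turn activates the kinase TBK1, the transcription factor IRF3 and NF-kappaB. The type I interferon made in response acts through its receptor and downstream transcription factors on promoters that hold an interferon-stimulated response element (ISRE), which switches on antiviral effectors, guanylate-binding proteins and antigen presentation genes. STING antagonists such as SN-011 and H151 act on STING itself, downstream of the DNA and of cGAS.

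Each library held between 11845470 and 17284863 counted fragments, and 14591 of 54532 genes passed the filter on low counts. Levels are given as CPM (counts scaled to a fixed library total), in the order library 1 and library 2 of a group. Macrophage genes were abundant in both groups, with Lyz2 at 23079 and 21098 CPM in WT and 21224 and 21325 CPM in the SN-011 libraries and Csf1r at 4982 and 4987 CPM and 4689.7 and 4724 CPM. Trex1 itself had 0 counts in all 8 libraries, WT included, so the knockout could not be checked from its own counts. All 1147 of its exonic bases (GRCm38 chromosome 9, 109057933 to 109059734) lie inside exons of Atrip, and how reads shared by overlapping genes were counted is not given in the sources used here. Atrip, whose annotated exons span that locus and which encodes the partner of the checkpoint kinase ATR, was at 14.1 and 17.4 CPM in WT and 54.3 and 54.3 CPM with SN-011 (log2 fold change 1.78 ± 0.10 (SE), edgeR adjusted p = 1.13e-07). The labels do not say whether the 2 libraries of a group came from different animals, so each p-value measures only the spread between these libraries. The SN-011 libraries were registered later and with another treatment text than the other 6, so a batch cannot be told apart from SN-011, and WT purchase cannot be told apart from genotype.

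Promoter sequences are shown first for genes that the results below turn on, because type I interferon acts through a short motif in them. Apart from Cxcl10, each printed promoter was chosen among called genes that held the motif searched for, so its match was fixed by the choice. The ISRE core was searched as GAAANNGAAA on both strands, in windows from 250 bases before to 50 after each annotated start (RefSeq, GRCm38.p6), and 3.443% of all 32851 such windows held it. The 250 bases before the start are printed 5′ to 3′ on the strand of the gene, with each match in capitals. Oas3, Irgm2 and Ifi213 were called higher with SN-011 than in WT, whereas Cxcl10 was not called.

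Oas3 (chr5:120777660-120777909, minus strand): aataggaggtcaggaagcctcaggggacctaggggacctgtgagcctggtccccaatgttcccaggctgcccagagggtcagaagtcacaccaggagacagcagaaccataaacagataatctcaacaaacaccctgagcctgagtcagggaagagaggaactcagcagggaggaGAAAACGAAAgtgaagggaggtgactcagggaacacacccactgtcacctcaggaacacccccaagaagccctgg

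Irgm2 (chr11:58214727-58214976, plus strand): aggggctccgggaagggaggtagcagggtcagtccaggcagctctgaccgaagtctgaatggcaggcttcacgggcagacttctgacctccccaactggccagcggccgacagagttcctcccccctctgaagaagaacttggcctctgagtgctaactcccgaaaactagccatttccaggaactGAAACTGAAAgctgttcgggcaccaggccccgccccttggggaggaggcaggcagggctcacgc

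Ifi213 (chr1:173599273-173599522, minus strand): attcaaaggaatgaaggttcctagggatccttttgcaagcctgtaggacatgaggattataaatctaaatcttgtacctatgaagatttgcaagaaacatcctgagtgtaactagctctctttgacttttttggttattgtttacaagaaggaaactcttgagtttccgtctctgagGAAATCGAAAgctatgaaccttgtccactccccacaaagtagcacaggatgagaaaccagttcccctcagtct

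Cxcl10 (chr5:92348890-92349139, minus strand): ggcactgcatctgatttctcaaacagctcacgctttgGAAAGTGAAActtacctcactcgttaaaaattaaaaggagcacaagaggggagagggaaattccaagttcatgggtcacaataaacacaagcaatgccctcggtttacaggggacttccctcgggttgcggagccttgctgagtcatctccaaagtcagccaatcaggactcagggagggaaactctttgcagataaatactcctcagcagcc

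Of 14591 tested genes, 10379 had such a window, and 417 of these (4.02%) held the ISRE core. Among the genes called higher with SN-011 than in WT, 76 of 673 with a window held it (11.3%), against 21 of 580 among the genes called lower (3.62%). In the antiviral, GTPase and PYHIN, Ly6 and ApoL lists described below, 49 of 80 genes with a window held the core. The share was 35 of 60 (58.3%) for their members called higher and 14 of 20 (70.0%) for their members not called. Antigen presentation genes were searched for the Y box CTGATTGG, present in 4.097% of all windows and in 6.56% of tested genes with a window, and 7 of the 14 called MHC class I genes with a window held it. H2-Aa, an MHC class II gene, carried 1 match, in capitals below. The sterol response element was searched as TCACNCCAC, present in 1.242% of all windows and in 1.43% of tested genes with a window, and 1 of 11 sterol and fatty acid synthesis genes called lower held it, namely the cholesterol synthesis gene Hmgcs1.

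H2-Aa (chr17:34287824-34288073, minus strand): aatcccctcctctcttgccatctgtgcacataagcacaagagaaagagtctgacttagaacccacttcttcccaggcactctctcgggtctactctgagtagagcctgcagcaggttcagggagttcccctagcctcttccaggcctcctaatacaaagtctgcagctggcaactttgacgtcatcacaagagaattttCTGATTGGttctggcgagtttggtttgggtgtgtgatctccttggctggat

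Hmgcs1 (chr13:119690101-119690350, plus strand): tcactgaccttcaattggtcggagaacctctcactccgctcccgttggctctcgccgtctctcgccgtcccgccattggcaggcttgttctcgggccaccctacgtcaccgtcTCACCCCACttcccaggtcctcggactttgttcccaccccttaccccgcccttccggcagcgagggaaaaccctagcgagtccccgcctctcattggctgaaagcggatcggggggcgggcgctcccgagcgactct

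Many genes still differed from WT under SN-011. By edgeR's quasi-likelihood test at an adjusted p under 0.05 (called, from here on), 902 genes were higher than in WT (6.18% of tested genes) and 812 were lower (5.57%), of which 234 and 356 changed at least 2-fold. The median log2 fold change over all tested genes was 0.01. The shares of 6.18% higher and 5.57% lower are the background for the list counts below. The total of calls also fell in every fit that left out a library. The Trex1-KO libraries without antagonist had 1352 genes higher (9.27%) and 1038 lower (7.11%) than the same WT libraries. Both comparisons share the WT libraries, so their values are set side by side only. Scaling by total counts instead of TMM gave 703 higher and 1042 lower genes for SN-011 against WT, with the median at -0.05. With a library left out the total of 1714 fell to 956 (WT 1), 1159 (WT 2), 1055 (SN-011 1) and 909 (SN-011 2), and 371 of the genes called higher and 325 of those called lower were called in all 4 of these fits.

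**Figure D1:**
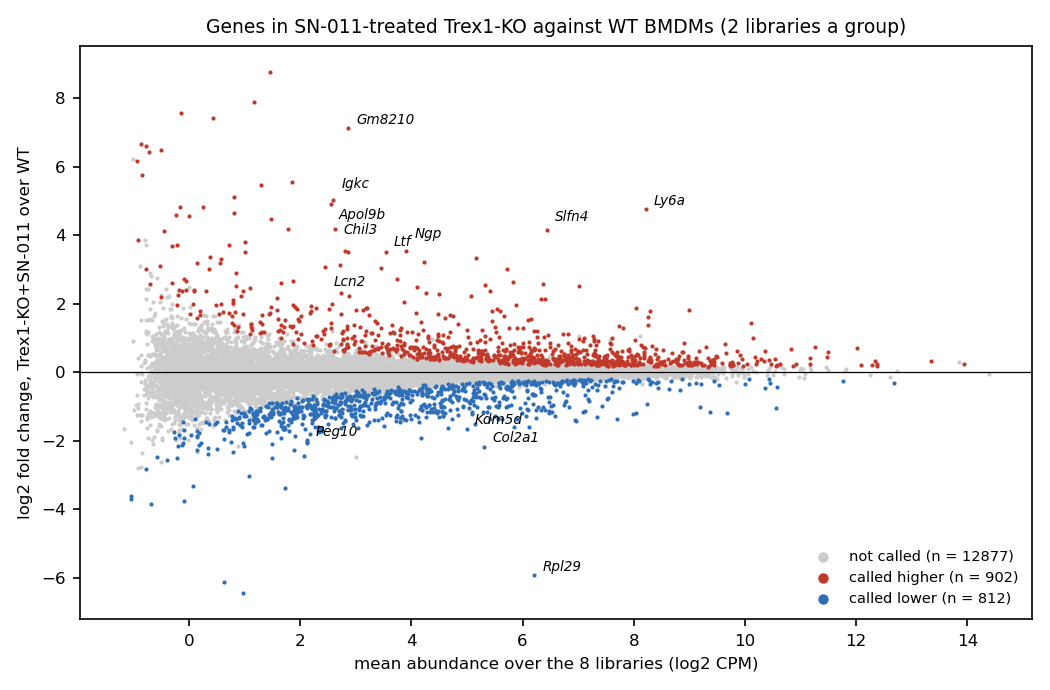
Each point is 1 of the 14591 tested genes, with the mean log2 CPM over the 8 libraries on the horizontal axis and the log2 fold change of Trex1-KO+SN-011 over WT on the vertical axis. Red marks the 902 genes called higher, blue the 812 called lower and grey the rest, with Rpl29 near the bottom at -5.92.

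The largest rises above WT, among genes with both SN-011 libraries above both WT libraries and a mean log2 CPM of at least 2, fell into interferon-induced genes, neutrophil granule genes and immunoglobulin genes. Ly6a, which encodes the surface antigen Sca-1, was at 11.6 and 11 CPM in WT and 297 and 316 CPM with SN-011, a difference of 4.76 ± 0.16 on the log2 scale (SE; edgeR adjusted p = 1.06e-09). The Trex1-KO libraries were at 412 and 436 CPM, and the difference between SN-011 and Trex1-KO was not called (log2 fold change -0.47, adjusted p = 0.0706). Slfn4, a Schlafen family gene induced in activated myeloid cells, was at 5.74 and 4.61 CPM in WT, 175 and 173 in Trex1-KO and 86.1 and 99.96 CPM with SN-011, 4.17 above WT and -0.91 against Trex1-KO, both called. Apol9b, an apolipoprotein L gene, was at 0.294 and 0.136 CPM in WT and 6.52 and 6.79 CPM with SN-011 (4.91), and 52.3% of its 50-base windows are identical to Apol9a, so reads may have been assigned between them. Other named rises were Slfn1 (3.34), the complement component C2 (3.52), the siderophore-binding protein Lcn2 (3.06) and the guanylate-binding protein Gbp6 (3.05), of which C2 shares exonic bases with Gm20547 and Gbp6 shares 70.65% of its 50-base windows with other genes. Chil3, a chitinase-like protein of alternatively activated macrophages and neutrophils, differed between the WT libraries, with 0 and 14 counts there and 125 and 130 counts with SN-011. All 15 named rises were called in each of the 4 fits that left out a library.

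Among genes with a mean log2 CPM of at least 2, the largest fall was in Rpl29, a ribosomal protein gene 2.63 Mb from Trex1, at 289 and 277 CPM in WT and 4.6 and 4.76 CPM with SN-011 (log2 fold change -5.92 ± 0.10 (SE), edgeR adjusted p = 2.75e-13). Its level in Trex1-KO was 4.15 and 3.3 CPM. Gm8210, an Rpl29-like gene, went the other way, with 2 counts over both WT libraries and 322 over both SN-011 libraries. The ratio was 158 (95% counting interval 43.3 to 1306). Of its 50-base windows 100% are shared with other genes, 83 in all, and 65.44% are identical to Rpl29. Gm10709, outside the naming rule, shares 63.34% of its windows with Rpl29 and fell with it. It had 154 counts over both WT libraries and 2 over both SN-011 libraries. These changes cannot be read separately. Col2a1, the collagen of cartilage, was at 101 and 83 CPM in WT and 19.5 and 21.6 CPM with SN-011 (-2.17). Ighm, the immunoglobulin mu heavy chain, was at 40.3 and 37.5 CPM and 9.89 and 11 CPM (-1.91), and Tmem119, a transmembrane gene of osteoblasts and microglia, at 15.1 and 12 CPM and 4.83 and 3.74 CPM (-1.64). The other named falls included Hs6st2 (-2.04), Htra3 (-1.79), Svep1 (-1.74), Adamts12 (-1.72), Masp1 (-1.72), Mme (-1.71) and Fgfr2 (-1.65). Peg10 (-1.98), an imprinted retrotransposon-derived gene, the prostaglandin transporter Slco2a1 (-2.06), the predicted gene Gm2115 (-2.45) and the Y-linked demethylase Kdm5d (-1.64) completed the 15. Each was called in all 4 fits that left out a library.

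Most antiviral effectors were above WT under SN-011. Of 68 tested members 54 were called higher and none lower (6.18% and 5.57% over all genes), with a median log2 fold change of 0.62 against 0.01 over all genes. In Trex1-KO, 64 were called higher, with a median of 1.49. By role, 4 of 6 IFIT genes, 8 of 9 oligoadenylate synthetase genes, 5 of 5 genes of the ISG15 system, 3 of 4 RNA sensors, 11 of 16 PARP and TRIM genes and 23 of 28 other effectors were called higher than in WT. The direct test of SN-011 against Trex1-KO called 55 of the 68 lower with SN-011 and none higher, against 2.22% of all genes lower. At an unadjusted p under 0.05, 60 were higher and 1 lower, and DESeq2 called 49 higher and 0 lower. The 54 became 34 when WT 2 or SN-011 2 was left out, 46 without SN-011 1 and 53 without WT 1.

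The size of the remaining difference varied widely among antiviral genes. Oasl1, an oligoadenylate synthetase-like protein, was at 9.86 and 7.12 CPM in WT, 124 and 111 in Trex1-KO and 51.3 and 55 CPM with SN-011 (log2 fold change over WT 2.65, edgeR adjusted p = 1.13e-07). Ifi44, a cytoplasmic interferon-induced protein, was at 13.6 and 10.1, 183 and 176 and 68.6 and 74 CPM in the same order (2.59, adjusted p = 2.41e-08). For both, the SN-011 libraries lay well above WT and below Trex1-KO. Ifi27l2a, a small mitochondrial interferon-induced protein, had the same order, at 117 and 116 CPM in WT, 396 and 464 in Trex1-KO and 344 and 371 CPM with SN-011. Its SN-011 libraries stood nearer to Trex1-KO, and its test against Trex1-KO was not called (log2 fold change -0.27, 95% interval -0.58 to 0.05). Oas3 and Oas1g, which make the oligoadenylate that activates RNase L, were 1.29 and 1.3 above WT.

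IFIT proteins bind viral RNA, and their genes showed how far the WT libraries themselves differed. Ifit3 was at 70.4 and 52.3 CPM in WT, 350.3 and 321 in Trex1-KO and 115 and 127 CPM with SN-011, which was 0.98 ± 0.13 (SE) above WT (edgeR adjusted p = 0.000179) and -1.47 against Trex1-KO. Ifit1 was at 52.2 and 32.3 CPM, 242 and 197 CPM and 66 and 79.4 CPM (0.78, adjusted p = 0.00984). Mx1, a dynamin-like antiviral GTPase, was at 70.1 and 47.9 CPM, 275 and 248 CPM and 88.8 and 98.4 CPM (0.67, adjusted p = 0.00929). WT 1 stood above WT 2 for all 3 genes, and without SN-011 2 or WT 2 the adjusted p of Ifit1 was 0.121 and 0.105 and that of Mx1 0.103 and 0.114. Isg15, a ubiquitin-like modifier, was at 23.2 and 15 CPM in WT and 36 and 33.5 CPM with SN-011 (0.87, adjusted p = 0.0403), and its call was lost without WT 2 (0.328), SN-011 1 (0.216) or SN-011 2 (0.138).

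**Figure D2:**
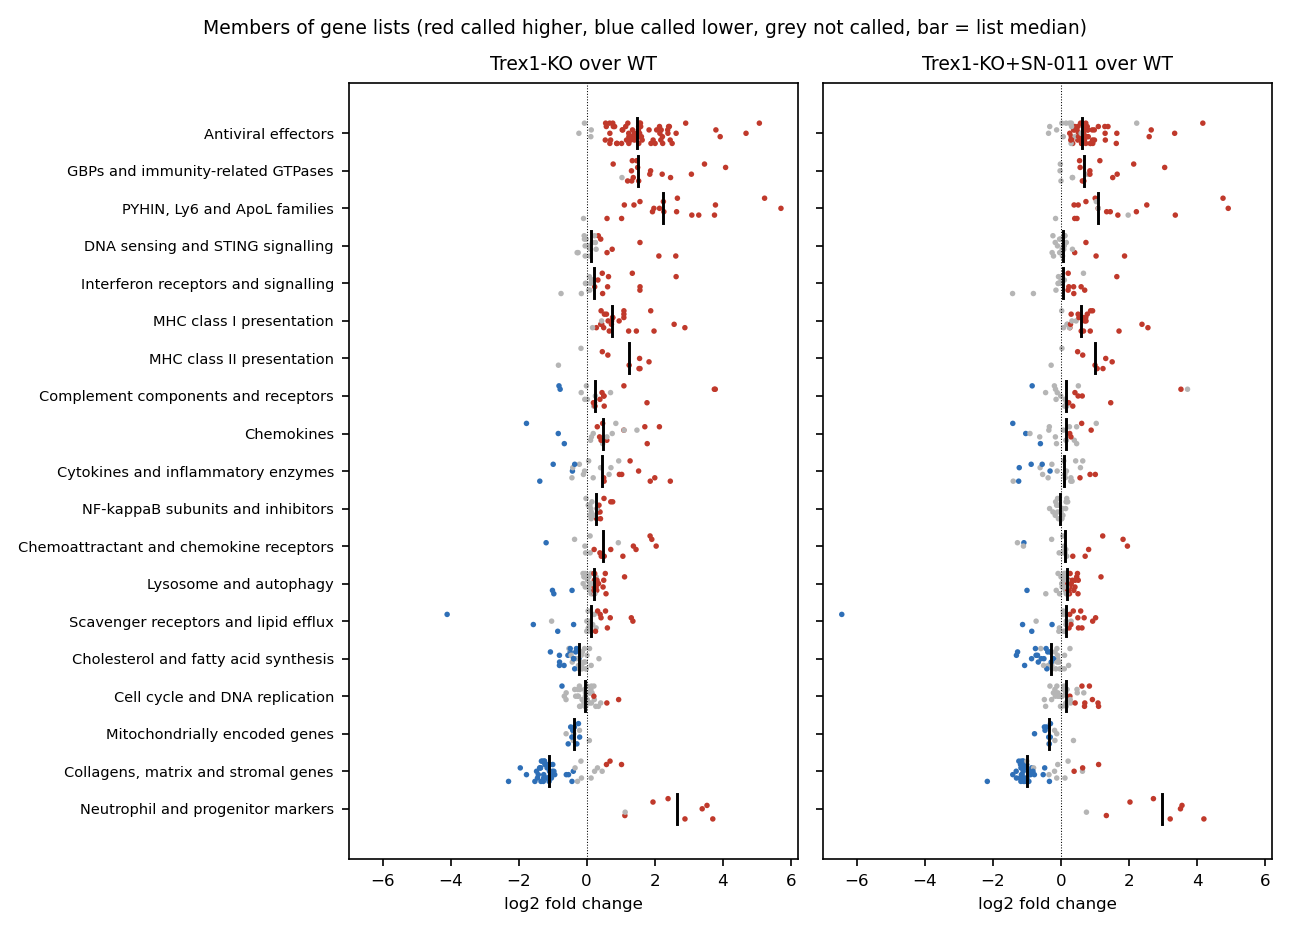
For each of 19 gene lists, every dot is a tested member and the bar is the list's median, as log2 fold change over WT, with Trex1-KO in the left panel and Trex1-KO+SN-011 in the right panel. The antiviral list has its median at 1.49 in Trex1-KO and 0.62 with SN-011, while the collagen, matrix and stromal list lies at -1.11 and -1.01.

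Guanylate-binding proteins (GBPs) and immunity-related GTPases (IRGs), which attack the vacuoles of intracellular pathogens, were also above WT in part. Of 17 tested members 11 were called higher than in WT and none lower, with a median of 0.67, and these were 8 of 9 IRGs and 3 of 8 GBPs, a difference between the families that was not tested. None was lower at an unadjusted p under 0.05 or with DESeq2 either. Iigp1 was at 20.4 and 11.7 CPM in WT, 179 and 172 in Trex1-KO and 69.1 and 70.9 CPM with SN-011 (2.13, edgeR adjusted p = 2.34e-06). Irgm2 was at 55.7 and 52.7, 162 and 150.6 and 80.7 and 86.7 CPM in the same order (0.63, adjusted p = 5.49e-05). Gbp2, in contrast, was at 46 and 28.4 CPM in WT, 89.6 and 81.2 in Trex1-KO and 32.5 and 42.2 CPM with SN-011, so the SN-011 libraries fell inside the range of the WT libraries (log2 fold change 0.00, 95% interval -0.38 to 0.38, not called). Among the GBPs Gbp9 (0.67) and Gbp8 (1.14) were called beside Gbp6.

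Most members of the PYHIN, Ly6 and apolipoprotein L families stayed above WT, with 15 of 19 called higher, none lower (none at an unadjusted p under 0.05 or with DESeq2), and a median of 1.09. PYHIN proteins bind DNA or RNA through a HIN domain, and 10 of 11 tested were called. Ifi213 was at 20.8 and 18.8 CPM in WT, 277 and 268 in Trex1-KO and 104 and 124 CPM with SN-011 (2.52, edgeR adjusted p = 5.96e-09). Ifi209 was 1.34 above WT and Ifi204 0.73. Ly6e, a surface protein that restricts viral entry, was the most abundant member, at 438 and 383 CPM in WT, 1658 and 1479.7 in Trex1-KO and 1096 and 1142 CPM with SN-011 (1.45, adjusted p = 2.58e-08). In the direct test against Trex1-KO 9 of 11 PYHIN genes, 1 of 5 Ly6 genes and no ApoL gene were called lower with SN-011.

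**Figure D3:**
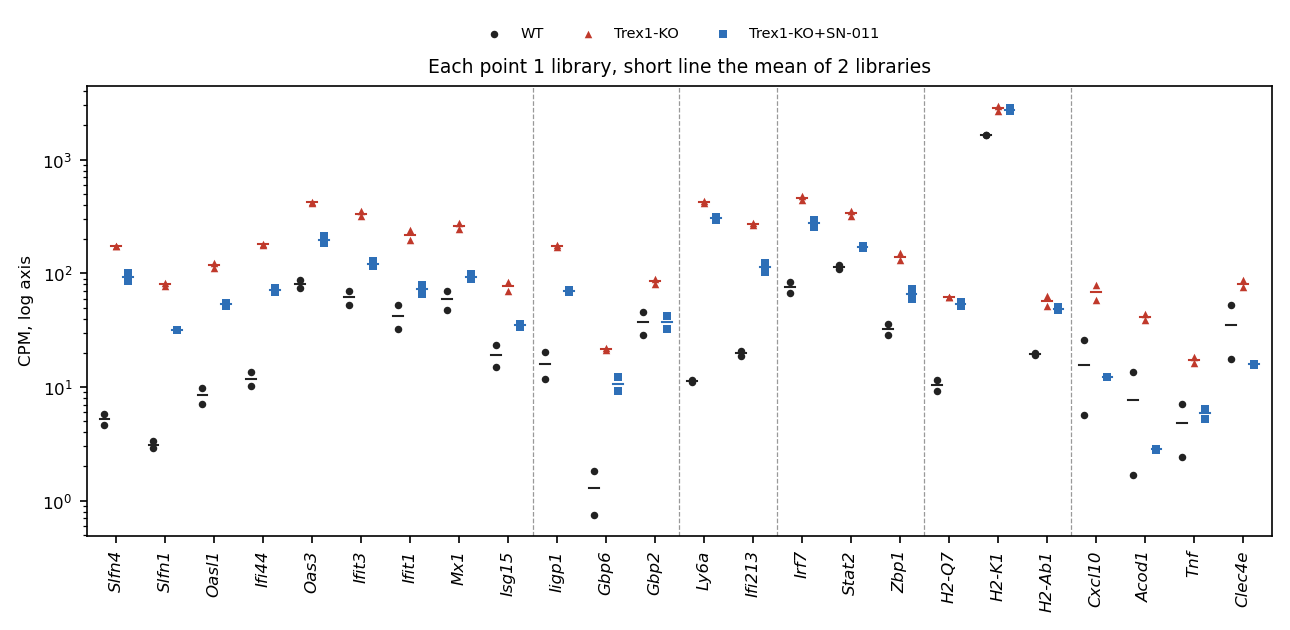
Each dot is the CPM of 1 gene in 1 library on a log axis, for WT, Trex1-KO and Trex1-KO+SN-011, with genes grouped by role. For Ly6a and H2-Q7 the SN-011 libraries lie close to Trex1-KO, for Ifit3 and Mx1 between the other groups and for Gbp2 and Cxcl10 inside the WT range.

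Several transcription factors of the interferon response were above WT. In the list of interferon receptors and signalling, 8 of 20 tested genes were called higher and none lower (2 at an unadjusted p under 0.05, 1 with DESeq2), among them 6 of 8 factors, 1 of 4 receptors and none of 3 kinases. Usp18, which removes ISG15 and restrains the receptor, was at 17.2 and 14.3, 97.6 and 96.6 and 47.7 and 50.3 CPM in WT, Trex1-KO and SN-011 (1.64, edgeR adjusted p = 1.45e-05). Stat2 was 0.59 above WT, with every SN-011 library between the WT and Trex1-KO libraries. Irf2 was at 94.1 and 91.3 CPM in WT and 108 and 106 CPM with SN-011 (0.21, adjusted p = 0.0382), and it was not called in any fit that left out a library (adjusted p from 0.143 without WT 1, 0.239 without WT 2, 0.207 without SN-011 1 and 0.172 without SN-011 2). The list's 8 became 5 with any 1 library left out. Ifnb1, which encodes interferon beta, had 0 to 2 counts per library and was left out by the filter.

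In the DNA-sensing list itself 4 of 22 genes were called higher than in WT and none lower (2 at an unadjusted p under 0.05, 0 with DESeq2, 2 without WT 2), with a median of 0.05. These were Irf7, Zbp1, Ifi204 and Aim2, while the trafficking and cGAMP-handling members had no call. Irf7, the factor that amplifies type I interferon, was at 83.6 and 66.9 CPM in WT, 479 and 445 in Trex1-KO and 256 and 293 CPM with SN-011 (1.87, edgeR adjusted p = 5.01e-07). Zbp1, a sensor of Z-form nucleic acid that can start necroptosis, was at 35.7 and 28.9 CPM in WT, 150.5 and 131 in Trex1-KO and 59.4 and 73 CPM with SN-011 (1.03, edgeR adjusted p = 6.62e-05). Mlkl, the executioner of necroptosis, was at 15 and 17.4 CPM in WT and 19.6 and 20.6 CPM with SN-011 (0.31, 95% interval 0.00 to 0.61, not called). Cgas was at 12.4 and 9.49 CPM in WT, 16.5 and 20.2 in Trex1-KO and 13.7 and 13.9 CPM with SN-011 (0.33, 95% interval -0.01 to 0.67, not called). Tmem173, which encodes STING, was at 47.6 and 42.7 CPM in WT and 51.4 and 46 CPM with SN-011 (0.12, 95% interval -0.09 to 0.32, not called). Of 17 nucleases and editors that limit self nucleic acid, 7 were called higher (6.18% over all genes) and none lower (also none with DESeq2 or at an unadjusted p under 0.05). Samhd1, a dNTP hydrolase, was at 678 and 710.1 CPM in WT and 814 and 843 CPM with SN-011 (0.26). The RNA editor Adar was 0.39 above WT and the RNA helicase Mov10 0.65. The 7 became 3 without WT 1, WT 2 or SN-011 2 and 4 without SN-011 1. The edgeR adjusted p was above 0.05 for Samhd1 without WT 1 (0.0709) and SN-011 2 (0.0977), for Adar without WT 2 (0.0533) and for Aim2 without SN-011 2 (0.0565).

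Most MHC class I genes, which present peptides to CD8+ T cells, stayed above WT. All 12 tested heavy chain genes and 6 of 13 loading and proteasome genes were called higher, a total of 18 of 25 with a median of 0.59 (0.73 in Trex1-KO). None was lower, with edgeR, DESeq2 or at an unadjusted p under 0.05. H2-K1, a classical heavy chain, was at 1662 and 1659 CPM in WT, 2697 and 2945 in Trex1-KO and 2833 and 2659.6 CPM with SN-011 (0.73 ± 0.07 (SE), edgeR adjusted p = 1.49e-05). H2-Q7, a non-classical one, was at 11.6 and 9.29, 62.2 and 61.4 and 52 and 56.3 CPM in the same order (2.38, adjusted p = 1.82e-08). The SN-011 libraries thus stood near the Trex1-KO libraries, and the difference between them was -0.04 (95% interval -0.19 to 0.11) for H2-K1 and -0.19 (-0.39 to 0.00) for H2-Q7, neither called. H2-D1 (0.70), B2m (0.59), the peptide transporter Tap1 (0.66) and the class I transactivator Nlrc5 (0.86) were also called above WT, and 6 of the 25 were called lower with SN-011 than in Trex1-KO, Tap1 and Nlrc5 among them. H2-Q genes share up to 36.45% of their 50-base windows with other genes, H2-T10 50.37% and H2-T22 53.52%. The counts of these genes are less certain than those of B2m.

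MHC class II genes present peptides to CD4+ T cells and were measured at lower levels, with 7 of 9 called higher than in WT, none lower, and a median of 1.00 against 1.25 in Trex1-KO. H2-Aa was at 14.9 and 17.1 CPM in WT, 58.3 and 56.2 in Trex1-KO and 44.8 and 46.4 CPM with SN-011 (1.5, edgeR adjusted p = 2.88e-07). Cd74, the invariant chain, was at 73.7 and 65.7, 207 and 198 and 143 and 148 CPM (1.06, adjusted p = 8.34e-07). Cd74 was the 1 class II gene called lower with SN-011 than in Trex1-KO (-0.48, adjusted p = 0.00171). H2-Ab1 and H2-Eb1 were 1.31 and 1.23 above WT. Dendritic cell markers tested beside them gave 2 of 5 called higher (1 with any library left out), with a summed level of 205 to 211 CPM in WT and 312 to 317 CPM with SN-011, and Bst2, itself interferon-induced, made up most of that level. The part of dendritic cells in the class II difference was not tested.

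Chemokines and inflammatory cytokines moved in both directions. Among 21 chemokines 4 were called higher and 3 lower than in WT (6.18% and 5.57% over all genes), with a median of 0.14. Among 24 cytokines and inflammatory enzymes 3 were higher and 5 lower, with a median of 0.09. By family, the CXC chemokines had a median of -0.36 with 3 lower, and the CC chemokines 0.34 with 4 higher. The 4 higher chemokines became 2 without SN-011 1 or SN-011 2, and the 3 lower became 5 without WT 2. For cytokines the 3 higher became 1 without SN-011 2 and 2 in each other fit, and the 5 lower became 1 without SN-011 1, 2 without WT 1, 4 without SN-011 2 and 6 without WT 2. No member of the NF-kappaB subunit and inhibitor list was called in either direction among 20 tested (median -0.03). At the shares over all genes, 6.18% and 5.57%, few of 20 genes would be called. In Trex1-KO 9 were called higher than in WT (9.27% over all genes), and 6 were called lower with SN-011 than in Trex1-KO (2.22% over all genes). By edgeR at an unadjusted p under 0.05, none of the 20 was higher and 2 were lower, and DESeq2 called none. The NF-kappaB count rose to 4 lower without WT 2.

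The WT libraries differed from each other at some of these inflammatory genes, which limits the comparison at those genes. Cxcl10, an interferon-induced T cell chemoattractant, was at 25.8 and 5.63 CPM in WT, 78.2 and 58.7 in Trex1-KO and 12.2 and 12.3 CPM with SN-011. The SN-011 libraries fell between the WT libraries, and the log2 fold change was -0.34 (95% interval -1.32 to 0.63, edgeR adjusted p = 0.733). Without WT 1 it became 1.11 (adjusted p = 0.0596) and without WT 2 -1.09 (adjusted p = 0.0165), so its direction depended on which WT library was kept. Acod1, which makes the antibacterial metabolite itaconate, was at 13.6 and 1.69 CPM in WT, 44 and 38.8 in Trex1-KO and 2.85 and 2.8 CPM with SN-011 (-1.41, 95% interval -2.71 to -0.10). Tnf was at 7.14 and 2.44 CPM, 18.5 and 16.2 CPM and 6.46 and 5.27 CPM (0.32, 95% interval -0.40 to 1.04), and neither gene was called. WT 1 was the higher WT library in all 3.

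Some secreted factors did differ from WT. Ccl4, a macrophage inflammatory protein, was at 12.3 and 11.4 CPM in WT and 20.02 and 23.9 CPM with SN-011 (0.88, edgeR adjusted p = 0.000363). Il18bp, which neutralises IL-18, was at 41.7 and 48.7 CPM and 81 and 82.2 CPM (0.85, adjusted p = 4.69e-05). Csf1, which encodes the growth factor M-CSF, was lower at 181 and 149 CPM in WT and 91.5 and 88.1 CPM with SN-011 (-0.88, adjusted p = 1.23e-05). Groups did not overlap at any of these genes, and Trex1-KO stood beside the SN-011 libraries at 23.8 and 26.6, 89.3 and 86.7 and 86.4 and 80.7 CPM. Cxcl12 (-1.42), a stromal chemokine that retains leukocytes in marrow, was lower at 272 and 229 CPM in WT and 97.9 and 89.3 CPM with SN-011.

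Receptors for chemokines, which steer leukocytes through tissue, differed from WT at several genes, beside 6.18% of all genes called higher and 5.57% lower. Of 18 tested chemoattractant receptors 6 were called higher and 1 lower, with a median of 0.12, and the 1 lower became 0 without SN-011 1 or SN-011 2 and 2 without WT 2. Ccr2, the receptor that draws monocytes out of marrow, was at 20.3 and 17.3 CPM in WT, 78.4 and 76.3 in Trex1-KO and 67.4 and 78.1 CPM with SN-011 (1.95 ± 0.10 (SE), edgeR adjusted p = 4.06e-08). Both SN-011 libraries lay above both WT libraries, and the difference between SN-011 and Trex1-KO was not called (95% interval -0.28 to 0.10). Ccr2 lies on chromosome 9, 15.04 Mb from Trex1. Ccrl2, a receptor that presents chemerin, was 1.22 above WT and -0.64 against Trex1-KO, and lies 2.0 Mb from Trex1.

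Fc receptors and C-type lectins moved in both directions, and innate receptor, costimulatory and cell death lists had mainly higher calls, beside 6.18% higher and 5.57% lower over all genes. Among Fc receptors and C-type lectins 5 of 20 were called higher and 5 lower, among Toll-like receptors and adaptors 4 of 23 higher and 1 lower, among costimulatory and checkpoint molecules 7 of 19 higher and 1 lower, and among cell death genes 7 of 34 higher and 1 lower. Several of these counts fell with 1 library left out. The 5 lower Fc receptors and lectins became 2 without SN-011 1 and 3 without SN-011 2, the 4 higher Toll-like genes 2 without SN-011 2, the 7 higher costimulatory genes 4 without SN-011 2, and the 7 higher cell death genes 4 without WT 2. Each single lower call in the last 3 lists was lost in at least 1 such fit, and the costimulatory one became 3 without WT 2. Fcgr4, an activating IgG receptor, was at 49.4 and 59.2 CPM in WT and 119 and 117 CPM with SN-011 (1.12, edgeR adjusted p = 1.09e-06). Clec4n, the fungal receptor Dectin-2, was at 99.4 and 103 CPM and 52.1 and 54.3 CPM (-0.93, adjusted p = 6.48e-06). Slamf7 (0.97), Cd180 (0.83), a regulator of TLR4, and Lgals9 (0.53) were called higher. Clec4e, the receptor Mincle, was called lower at -1.15 (adjusted p = 0.0467), but its WT libraries stood at 53.1 and 17.6 CPM against 15.9 and 15.6 CPM with SN-011, and the value was -0.16 (adjusted p = 0.717) without WT 1, -1.17 (0.223) without SN-011 1 and -1.15 (0.197) without SN-011 2. Tlr9, the receptor for unmethylated DNA, was at 51.5 and 49.7 CPM in WT, 61.6 and 59.5 in Trex1-KO and 42.5 and 38.3 CPM with SN-011 (-0.32, adjusted p = 0.0201). The call of Tlr9 held without SN-011 1 and was lost without SN-011 2 (0.18), WT 1 (0.129) and WT 2 (0.0635). Complement genes gave 7 of 21 higher and 1 lower, which became 4 higher without WT 1 or SN-011 2 and 2 lower without WT 2, with C4b at 8.1 and 5.76 CPM in WT and 19.5 and 18.3 CPM with SN-011 (1.46).

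Markers of neutrophils and myeloid progenitors were higher with SN-011 than in WT, as they were in Trex1-KO. Of 8 tested markers 7 were called higher, with a median of 2.96, and their summed level was 11.2 to 12.6 CPM in WT, 71.9 to 91.2 in Trex1-KO and 84.0 to 105 CPM with SN-011. S100a9, a calcium-binding protein of neutrophils and monocytes, was at 2.72 and 3.19 CPM in WT and 25.3 and 29.9 CPM with SN-011 (3.21, edgeR adjusted p = 7.68e-07). Ngp, a neutrophil granule protein, was at 1.47 and 1.76 CPM and 16.8 and 21.8 CPM (3.55, adjusted p = 1.26e-07). Ltf, which encodes the granule protein lactoferrin, was at 1.99 and 0.813 CPM and 13.2 and 18.8 CPM (3.51), and Camp, the cathelicidin of granules, at 0.0736 and 0.474 CPM and 3.49 and 7.47 CPM (4.2). Ngp, Ltf and Camp lie within 10 Mb of Trex1. The defining markers Ly6g, Mpo and Elane were too low to test, with Ly6g at 0 counts in both WT libraries and 3 counts in each SN-011 library. In bulk RNA, more cells of a type and more RNA per cell cannot be told apart.

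Most immunoglobulin transcripts named here, the product of B cells and plasma cells, were higher than in WT, and Ighm was lower. They were not fixed as a list, and the IgG and variable genes were named after their values were seen. Igkc, the kappa light chain, had 2 and 5 counts in WT and 150 and 93 with SN-011, or 0.147 and 0.339 and 8.73 and 7.9 CPM (log2 fold change 5.03, edgeR adjusted p = 5.18e-07). Igha, the heavy chain of IgA, was at 0.368 and 1.42 CPM and 12.7 and 8.49 CPM (3.54). The IgG heavy chain genes Ighg2b and Ighg2c had 0 counts over both WT libraries and 109 and 43 over both SN-011 libraries. The variable segments Ighv2-9, Ighv1-9, Ighv1-26 and Igkv1-117 also had 0 counts in WT, with 26, 23, 21 and 18 counts with SN-011. Ighm, described above, fell by 1.91 on the same scale. The plasma cell marker Sdc1 was called lower, at 32.5 and 27.6 CPM in WT and 17.9 and 18.4 CPM with SN-011 (-0.72, adjusted p = 0.00252), and was added after its values were seen. Jchain, which joins immunoglobulin units and is made by plasma cells, had 7 and 0 counts in WT and 46 and 38 with SN-011. The B cell markers were low, with Ms4a1 at no more than 2 counts in any library and Cd79a at 4 to 12, so they were not tested, and the part of B lineage cells in these values was not tested.

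Collagen, matrix and stromal genes were mostly below WT. Of 47 tested members 35 were called lower and 3 higher, with a median of -1.01, and Trex1-KO had 36 lower and 3 higher with a median of -1.11. Col1a1 was at 949 and 862 CPM in WT, 484 and 376 in Trex1-KO and 492 and 403 CPM with SN-011 (-1.02, edgeR adjusted p = 3.54e-05). Fn1, which encodes fibronectin and is also made by macrophages, was at 1456 and 1258, 664 and 535 and 628 and 559 CPM (-1.19, adjusted p = 6.99e-06). Acta2, the smooth muscle actin of myofibroblasts, was at 498 and 459.6 CPM in WT and 233 and 188 CPM with SN-011 (-1.18). Mmp14, a membrane-anchored collagenase, was the 1 member called lower with SN-011 than in Trex1-KO, at 115 and 93.9 CPM in WT, 93.6 and 79.7 in Trex1-KO and 50.1 and 47 CPM with SN-011. The matrix enzymes Mmp12 (1.1), Mmp27 (0.38) and Mmp8 (0.63) were the 3 called higher, of which Mmp27 and Mmp8 lost their call without SN-011 2 (0.229 and 0.335), WT 1 (0.168 and 0.19) and WT 2 (0.0591 and 0.136). Fibroblast markers gave 5 of 7 lower and none higher, with a summed level of 2099.7 to 2301 CPM in WT and 934 to 1123 CPM with SN-011, and their part in the matrix result was not tested.

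**Figure D4:**
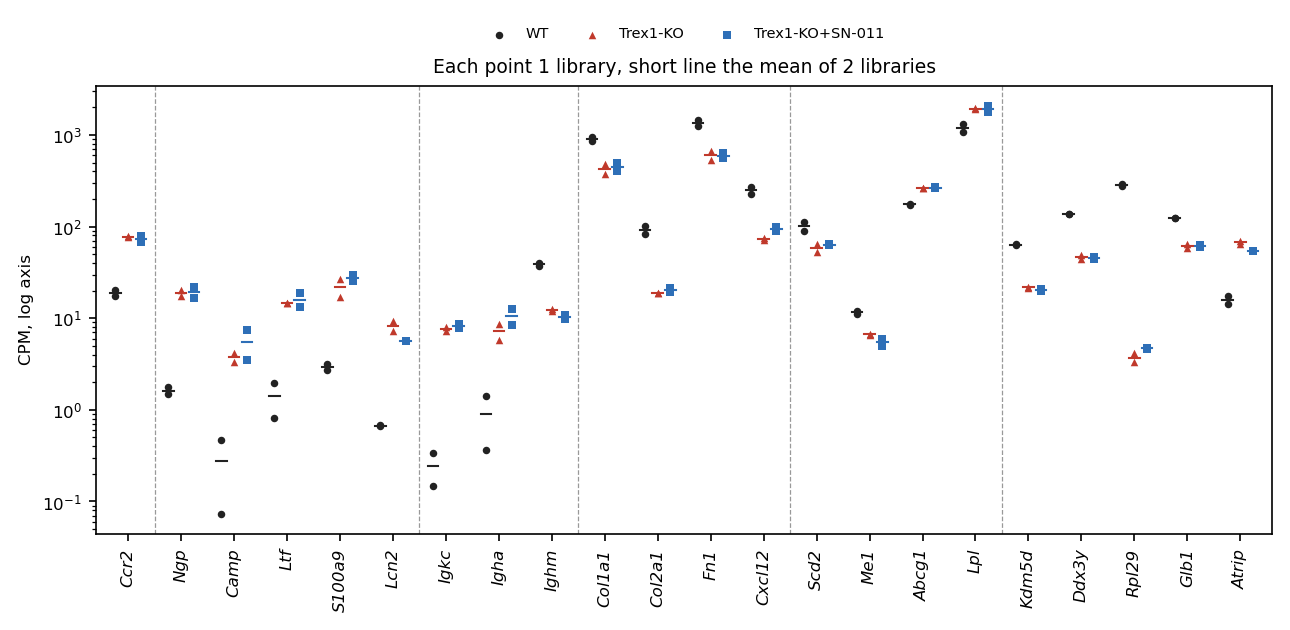
Each dot is the CPM of 1 gene in 1 library on a log axis for WT, Trex1-KO and Trex1-KO+SN-011, from a chemokine receptor and neutrophil genes on the left to Y-linked genes and genes near Trex1 on the right. For Ccr2, Ngp, Igkc, Col2a1, Kdm5d and Rpl29 the SN-011 libraries lie beside the Trex1-KO libraries and apart from WT.

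Part of the cholesterol and fatty acid synthesis list was lower than in WT. Of 36 tested members 17 were called lower and none higher (1 at an unadjusted p under 0.05, 0 with DESeq2), with a median of -0.30, namely 12 of 24 cholesterol genes and 5 of 12 fatty acid genes. Scd2, a stearoyl-CoA desaturase, was at 113 and 89.9 CPM in WT, 64.1 and 52.7 in Trex1-KO and 64.2 and 63.1 CPM with SN-011 (-0.67, edgeR adjusted p = 0.000862). Me1, which makes NADPH for fatty acid synthesis, was at 11.1 and 12.1, 6.79 and 6.53 and 5.99 and 4.93 CPM (-1.07, adjusted p = 0.000798). Both genes had every SN-011 library below every WT library, and 1 member of the list was called lower with SN-011 than in Trex1-KO. Hmgcs1, whose promoter is printed above, was at 57.1 and 54 CPM in WT and 44.3 and 46.6 CPM with SN-011 (-0.29, adjusted p = 0.0227), and its call was lost without WT 1 (0.168), WT 2 (0.0528), SN-011 1 (0.199) or SN-011 2 (0.0706). The 17 became 5 without WT 1, 8 without SN-011 1, 7 without SN-011 2 and 14 without WT 2, and 5 were called in all 4 of these fits.

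Of 25 lipid uptake and efflux genes 11 were called higher and 4 lower (6.18% and 5.57% over all genes), with a median of 0.15. Lpl, the lipoprotein lipase, was at 1326 and 1079.5 CPM in WT and 1792 and 2058 CPM with SN-011 (0.68, edgeR adjusted p = 0.000312). Abcg1, a cholesterol exporter, was at 175 and 173 CPM and 273 and 261 CPM (0.61, adjusted p = 7.24e-06). Nr1h3, the liver X receptor that senses oxysterols, was 0.93 above WT, and Axl, a receptor for apoptotic cells, 1.02. The scavenger receptor Marco had 189 counts over both WT libraries and 2 over both SN-011 libraries, a ratio of 96.6 (95% counting interval 26.4 to 803), at 10.8 and 2.85 CPM in WT. Without WT 1, WT 2, SN-011 1 or SN-011 2 the 11 became 6, 9, 8 and 6, and the 4 lower became 4, 3, 2 and 2.

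Of 42 lysosomal and autophagy genes 18 were called higher than in WT and 1 lower (6.18% and 5.57% over all genes), with a median of 0.16. Those higher were 15 of 28 lysosomal and 3 of 14 autophagy genes. Ctsd, the protease cathepsin D, was at 4354 and 4453 CPM in WT and 5464 and 5637 CPM with SN-011 (0.33, edgeR adjusted p = 0.00013). Gla, which degrades globotriaosylceramide, was at 115 and 119.7 CPM and 164 and 167 CPM (0.50, adjusted p = 9.15e-05). The 1 gene called lower, Glb1, encodes the lysosomal beta-galactosidase and lies 5.34 Mb from Trex1, at 125 and 124 CPM in WT and 63.6 and 60.6 CPM with SN-011 (-1.0, adjusted p = 8.13e-07). The 18 became 9 without WT 1, 11 without WT 2, 10 without SN-011 1 and 8 without SN-011 2, with 7 called in all 4 of these fits.

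Mitosis genes gave 8 of 20 called higher than in WT. Replication genes gave 1 of 19 (5.26%), near the 6.18% called higher over all genes. None of either group was lower by the quasi-likelihood test. Over both, 1 was lower at an unadjusted p under 0.05, 1 by edgeR's exact test, 1 without WT 2 and none by DESeq2. Cenpe, a kinetochore kinesin, was at 10.1 and 9.9 CPM in WT, 14.1 and 11.3 in Trex1-KO and 16.5 and 15.7 CPM with SN-011 (0.69, edgeR adjusted p = 0.00678). Mki67, a marker of cycling cells, was at 34.8 and 30.5, 35.7 and 33.5 and 44.3 and 42.5 CPM (0.41, adjusted p = 0.00832). For both, the SN-011 libraries were the highest, yet no member was called between SN-011 and Trex1-KO. The 9 became 1 without SN-011 1 or WT 2, 3 without WT 1 and 5 without SN-011 2. Cenpe then had adjusted p-values of 0.0634 without SN-011 1, 0.0528 without WT 1 and 0.055 without WT 2, and Mki67 had an adjusted p of 0.0879 without SN-011 1, 0.125 without WT 2, 0.0179 without WT 1 and 0.0502 without SN-011 2.

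Of the mitochondrially encoded genes 8 of 13 were called lower than in WT, with none higher (none at an unadjusted p under 0.05 or with DESeq2) and a median of -0.34. The complex I subunit mt-Nd5 was at 1659 and 1549 CPM in WT and 1148 and 1166 CPM with SN-011 (-0.47, edgeR adjusted p = 0.000179). The 8 became 5 without SN-011 1 or SN-011 2 and 6 without WT 1 or WT 2. Nuclear genes of the respiratory chain had no edgeR call in either direction among 80 tested (median 0.03), with 0 higher and 1 lower at an unadjusted p under 0.05 and none by DESeq2. Of 86 cytosolic ribosomal protein genes, edgeR called Rpl29 and Rps4l, both lower, and Rps4l lost its call without WT 1 (0.107), SN-011 1 (0.0503) or SN-011 2 (0.0985). The p53 targets had no quasi-likelihood call among 20, with 4 higher and 2 lower at an unadjusted p under 0.05 and none by DESeq2, while edgeR's exact test called 1 lower and the fit without SN-011 2 called 1 higher.

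Genes around the knocked-out locus and on the Y chromosome also separated the groups. Within 10 Mb of Trex1 on chromosome 9, 15 of 185 tested genes were called higher and 27 lower, or 8.11% and 14.6% against 6.18% and 5.57% of all genes. Rpl29 and Glb1, described above, were among the 27. The 27 lower genes became 14 without WT 1 and 18 to 21 without each of the others, and the 15 higher became 7 without WT 2 and 9 without SN-011 2. Leaving out all genes within 10 Mb changed the series-wide counts to 887 higher and 785 lower.

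All 4 tested Y-linked genes were called lower than in WT, with a median of -1.60. Ddx3y, an RNA helicase, was at 138 and 138 CPM in WT, 44.5 and 49.1 in Trex1-KO and 44.3 and 46.4 CPM with SN-011 (-1.61, edgeR adjusted p = 1.82e-08). Xist, made from the inactive X of female cells, was at 3.02 and 3.12 CPM and 3.03 and 3.74 CPM (0.12, 95% interval -0.40 to 0.65, not called). The labels do not give the sex of the mice.

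Direct tests compared SN-011 with the other Trex1-KO groups. Against Trex1-KO, 324 genes were called lower with SN-011 (2.22% of tested genes) and 16 higher (0.11%). Those higher were 1 without SN-011 1, 13 without SN-011 2, 8 without Trex1-KO 1 and 42 without Trex1-KO 2, and those lower 130, 173, 190 and 260 in the same order. A filter at 1 count gave 194 higher and 485 lower, and a replicate block 49 and 387. The NF-kappaB kinase Ikbke, at 276 and 241 CPM in WT, 355 and 334 in Trex1-KO and 248 and 253 CPM with SN-011, was called lower than Trex1-KO (-0.46, edgeR adjusted p = 0.0019) and lay -0.04 from WT (95% interval -0.19 to 0.11, not called). Mmp14, Tlr9 and Hif1a, the hypoxia-inducible factor, were called lower than both WT and Trex1-KO. Hif1a was at 178 and 164 CPM in WT, 160.5 and 155 in Trex1-KO and 127 and 128 CPM with SN-011, -0.43 from WT and -0.31 from Trex1-KO. Among the 16 higher genes were mt-Rnr2, CT010467.1 and Rn7sk, abundant RNAs without a poly(A) tail of the usual kind, and CT010467.1 differed between the SN-011 libraries, at 911 and 194 CPM. The 3 RNAs of the last sentence and Hif1a's order were named after their values were seen.

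Against H151, 23 genes were called lower with SN-011 (0.158% of tested genes) and none higher, and 1300 had an unadjusted p under 0.05, while DESeq2 called 35 lower and 3 higher. The direction was not stable, since 190 were called higher and 101 lower without H151 2, and 152 higher and 114 lower with a filter at 1 count. Ahrr, a repressor of the aryl hydrocarbon receptor, had 32 and 32.3 CPM under H151 but 14.9 and 11.6 CPM under SN-011 (-1.26, edgeR adjusted p = 0.00141). Cyp1b1, an oxidase induced by that receptor, was at 73.7 and 60.9 CPM under H151, 41.4 and 34 CPM under SN-011 and 108 and 87.3 CPM in WT, -0.82 between the antagonists and -1.37 between SN-011 and WT. Cd74 was also among the 23 (-0.48), at 213 and 192 CPM with H151. No antiviral, GTPase or PYHIN member was among the 23. By the study's methods both antagonists were given at the same dose for the same time, while the labels give a dose for H151 only.

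The study's M7core set holds IRF2-bound genes of its STING-responsive module 7 that a cGAS-activating DNA (G3-YSD) also induced. It was counted as a list, but its members were chosen for induction, and module 7 had been singled out partly by its rise in Trex1-/- BMDMs and is no independent evidence of direction. Of 152 tested members 89 were called higher than in WT and 3 lower (6.18% and 5.57% over all genes), with a median of 0.41 against 1.08 in Trex1-KO. Called lower with SN-011 than in Trex1-KO were 89 (2.22% over all genes). The 41 members that the study also assigned to interferon modules gave 33 higher (median 0.54), and the 111 outside them gave 56 higher and 3 lower (median 0.35). Of 61 RelB targets in the set 38 were higher. Of the 404 tested module 7 genes outside M7core 68 (16.8%) were higher and 26 (6.44%) lower (median 0.06), the latter near the share over all genes. Without SN-011 2 the 89 became 57, the 56 became 35, the 38 became 22, the 68 became 35 and the 26 became 10, and without WT 2 they became 60, 37 and 24. The 3 lower M7core genes became 1 without SN-011 2 and 2 in each other fit. Outside M7core the 26 lower also became 12 without WT 1 and 13 without SN-011 1, and the 68 higher became 42 without WT 1 and 43 without WT 2.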

How the data were processed

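Polyadenylated RNA of BMDMs was sequenced as paired reads in 8 libraries of 4 groups with 2 libraries each. Per the study's methods, the authors used Trimmomatic for trimming, hisat2 with its defaults for alignment, and featureCounts to count pairs that mapped uniquely, whereas the submitters' processing notes name HISAT2, HTSeq and mm10. The deposited values are raw counts for 54532 Ensembl genes per library, and versions and annotation are not given in the sources used here. Keeping only unique pairs can drop or split reads of near-identical genes, and although the methods describe strand-specific libraries, the strand setting of the counting is not given, so reads of overlapping genes on opposite strands may not have been told apart.

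Symbols and positions came from GENCODE M21 for 54495 identifiers. Groups were read from titles. Genes were kept by filterByExpr (minimum count 10, minimum total 15), libraries were scaled by TMM, and edgeR 4.0.16 in R 4.3.3 fitted 1 mean per group over all 8 libraries with the quasi-likelihood F-test, two-sided, with Benjamini-Hochberg adjustment over 14591 genes at 0.05. CPM used TMM-scaled library sizes, and 1 count was worth 0.0579 to 0.0844 CPM at the raw totals. On simulated data for SN-011 against WT (14370 genes, 200 changed), 83% of 2-fold and 98% of 4-fold changes were recovered with 5 false calls. Members and lists were chosen with earlier results of these data known. Named genes were the 15 largest called rises and 15 largest falls with mean log2 CPM of at least 2 and groups that did not overlap, a fixed set (Trex1, Atrip, Cgas, Tmem173, Ifnb1, Irf2, Zbp1, Mlkl, Cxcl10, Isg15, Ifit3), and called members of each list, or its abundant members where few were called; some genes the rule names are not reported here. Promoters are RefSeq starts on GRCm38.p6. Counting intervals are exact at 95% and cover counting error only. Alternatives were other size factors, total counts only, DESeq2 1.42.0, edgeR's exact test, other filters, the 2 groups alone, a replicate block, a 2-fold minimum, and each library left out, in which the lone library was assumed to vary like the other groups. Deviations of equally numbered libraries from their group means correlated at 0.00483 between WT and SN-011, and the numbers were not taken as pairs.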

Additional observations from a re-analysis of the deposited data

Results flagged for a closer look

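The SN-011 and H151 libraries of Trex1-KO BMDMs differed by a direct edgeR test at 23 genes, all lower in the SN-011 libraries, and a batch cannot be told apart from SN-011. Besides Ahrr, Cyp1b1 and Cd74, the receptor Gpr141 was at 7.41 and 7.12 CPM under H151 but 2.85 and 1.95 CPM under SN-011 (log2 fold change -1.56, edgeR adjusted p = 0.0262), and Notch1 was at 166 and 145 CPM and 77.5 and 81 CPM (-0.97, edgeR adjusted p = 0.000119). The smallest of the 23 differences was -0.30, at Gpnmb. The count was 2 without SN-011 library 1, 11 without SN-011 library 2 and 291 without H151 library 2, of which 190 were higher and 101 lower with SN-011.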

How the results depend on the processing

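The 1714 genes called between SN-011 and WT ranged from 909 to 1159 with 1 library left out, with 481 to 580 called higher and 428 to 616 called lower, and they were 590 (234 higher, 356 lower) when a 2-fold change was required. All other settings stayed within 1.5 times, from 1315 with DESeq2 to 2334 with only the 2 groups fitted. Total counts in place of TMM moved the share of higher calls from 52.6% to 40.3%, and a 2-fold minimum to 39.7%. Trex1-KO against WT gave 1556 to 1933 genes of 2390 with a library left out, and SN-011 against Trex1-KO gave 131 to 302 of 340 and 679 (194 higher, 485 lower) with a filter at 1 count. SN-011 against H151 gave 2 to 291 of 23, 38 with DESeq2 and 266 with a filter at 1 count (152 higher, 114 lower). Total counts gave 946 higher and 1598 lower for Trex1-KO against WT. Cxcl10, not called with all libraries, was at 1.11 without WT 1, in the opposite direction, and at -1.09 and called without WT 2. The cause of these shifts was not tested. For the fixed genes and the 15 largest rises and 15 largest falls, list members aside, 455 of the values under the alternatives kept direction and call, 11 lost the call, 1 gained it and 1 reversed.

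A replicate block gave 1879 genes (986 higher, 893 lower) for SN-011 against WT, 2611 for Trex1-KO against WT, 436 for SN-011 against Trex1-KO and 44 for SN-011 against H151. The labels do not say that equal numbers mark shared animals, and no pairing was assumed. Deviations of equally numbered libraries correlated at 0.0609 between WT and Trex1-KO, 0.194 between Trex1-KO and H151 and -0.00554 between Trex1-KO and SN-011. With 2 libraries a group, many calls were lost when a library was left out, which left its group without replication. Whether lost calls rested on that library or on the smaller group was not tested.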

Other observations

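Of 24 macrophage identity genes 7 were called higher and 1 lower (median log2 fold change 0.10), with Lgals3, the lectin galectin-3, at 901 and 977 CPM in WT and 1448 and 1432 CPM with SN-011 (0.62, edgeR adjusted p = 3.57e-05). Over all tested genes 6.18% were called higher and 5.57% lower. Beside this background, glycolysis and hypoxia genes gave 4 of 33 higher and 3 lower, unfolded protein response genes 6 of 32 higher and 2 lower, AP-1 and immediate early genes 6 of 28 higher and 3 lower, iron genes 3 of 13 higher and 2 lower, NRF2 targets 1 of 24 in each direction and histone genes 1 of 28 higher and 2 lower. With 1 library left out, the higher counts fell to between 1 and 3 for the unfolded protein response, 1 and 2 for glycolysis and hypoxia and 3 and 5 for AP-1, and to 2 for iron and 0 for NRF2 and histone genes in every such fit. All of these lists had their lowest higher count without SN-011 2. The lower counts were 1 to 2 for glycolysis, the unfolded protein response and histones, 1 to 3 for AP-1 and 0 to 1 for NRF2. The macrophage identity counts stayed at 7 and 1. Jun, an AP-1 subunit, was at 94.1 and 98 CPM in WT and 144 and 148 CPM with SN-011 (0.60, edgeR adjusted p = 8.49e-05). Batf2, an interferon-induced AP-1 family member, was at 5.52 and 4.61 CPM and 14.5 and 11.6 CPM (1.38). In the aryl hydrocarbon receptor list 2 of 7 were lower and none higher with edgeR, DESeq2 or an unadjusted p under 0.05, with Cyp1b1 at -1.37.

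Of the 4 tested structural and 7SK RNAs none was called by edgeR or DESeq2 against WT and 1 was called higher by edgeR's exact test, while all 4 were higher at an unadjusted p under 0.05, and their summed level was 469 to 504 CPM in WT and 409 to 1438 CPM with SN-011. Some of them were called higher when SN-011 2 was left out. Among markers of other cells, the 1 tested mast cell, 1 tested lymphocyte and 2 tested erythroid and platelet genes had no call, with DESeq2 calling none either and an unadjusted p under 0.05 for the lymphocyte gene. Of 2 osteoclast genes Acp5 was called higher (1.2), at 3.68 and 5.35 CPM in WT and 10.5 and 10.4 CPM with SN-011.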
